A study of Mus musculus with 15 samples.

Results

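Mitosis, spindle and centromere genes were followed in mouse acute myeloid leukemia before and after an oncogenic NRAS transgene was switched off. The set holds 50 genes chosen by name and not by a cut on their values, but with earlier results of these data known. Of these, 49 had a probe set that carries their symbol alone, out of 18193 genes measured in all. The exception was Ccnb1, which is not reported. Where a gene had several probe sets, the one with the highest mean over all arrays stood for it, and every level below is the log2 of the deposited intensity of that probe set.

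All 15 arrays hold RNA of NRASG12V/Mll-AF9 primary AML cells taken from leukemic spleens of SCID/Beige mice, which lack most lymphocytes but keep their own red cell, platelet and macrophage lineages. The leukemia cells were injected through the tail vein, and at 20 days the mice carried over 100000 white cells in each microlitre of blood. The RAS-OFF groups received doxycycline, which shuts off NRASG12V, for 48, 60, 72, 84 or 96 h (2 arrays at each time, 10 in all), and the RAS-ON group received vehicle and was taken at 0 h (5 arrays). Every group carries the Mll-AF9 fusion throughout, and no vehicle arrays of a later time were analysed here, so that doxycycline and time since treatment began cannot be told apart. The labels call the arrays of a group replicates without tying them to animals, so the p-values measure only the spread between these samples, which may be technical. The promoter that drives the transgene is not given in the sources used here.

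Mitotic genes are transcribed in step with the cell cycle. Most are switched on late in it, when complexes that bind CHR elements in their promoters change from repressing to activating forms. Such promoters can also hold CCAAT and E2F elements. Their proteins drive entry into mitosis, build the spindle, hold chromosomes to it at the kinetochore, delay anaphase until every chromosome is attached, and then divide the cell. In tissue RNA their combined level is used as a measure of how much a cell population is dividing.

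Array medians of intensity were all between 149.988 and 156.528, and precision is limited by how many arrays there are. Gapdh probe sets at the 3-prime end exceeded those at the 5-prime end, a measure of RNA breakage, by a log2 difference of 1.22 for RAS-OFF 96 h replicate 1 and by 0.0989 to 0.355 elsewhere. The RAS-OFF arrays 48 h, 84 h and 96 h replicate 1 stood apart from their partners in earlier work on these data, and counts without them are given where they differ. Of the 10 leukemia and myeloid markers, 10 lay above the array median on every RAS-OFF array and 9 did so on every RAS-ON array, Meis1 being the exception. Nras, the mouse counterpart of the transgene, averaged 10.62 ± 0.17 in RAS-OFF (SD, n = 10) and 10.94 ± 0.18 in RAS-ON (SD, n = 5), a difference of -0.31 ± 0.09 (SE, limma adjusted p = 0.00725). Whether its probe set detects the transgene was not tested.

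The first comparison set all RAS-OFF arrays against RAS-ON, with the mean of the 5 RAS-OFF group means minus the RAS-ON mean as the change. Of the 49 mitosis genes, 29 were higher in RAS-OFF, 8 were lower and 12 were not called (limma, Benjamini-Hochberg adjusted p under 0.05 over all genes). These are 59.18% higher and 16.33% lower, against 20.1% higher and 28.7% lower over all genes measured. The median change was 0.23 for the mitosis genes and -0.04 for all genes, and the single changes ran from -0.39 to 1.15, with 37 of 49 above 0. On all 10 RAS-OFF arrays 9 genes exceeded every RAS-ON array, namely Cdc25b, Cenpk, Nusap1, Mki67, Ube2c, Spc25, Pttg1, Ccna2 and Aurka. None stayed below every RAS-ON array on all RAS-OFF arrays, and the other 40 overlapped. Over all genes, 9.36% lay wholly above and 12% wholly below. In bulk RNA, fewer cells of a type and less RNA per cell cannot be told apart. Leaving out arrays can also change the share of all genes called. That share is not given beside the next counts, so they do not describe the mitosis genes alone. The count of genes called lower was 4 with RAS-ON replicate 5 left out, 5 with 84 h replicate 1 left out and 4 without the 3 arrays that stood apart, while the count called higher kept to 26 to 29 with any 1 array left out. By gene, 29 of the 37 calls held without any 1 array, and 18 held under each of 24 other settings of the fit, single probe sets aside: Anln, Aurka, Birc5, Ccna2, Cdc25b, Cenpf, Cenpk, Ect2, Hmmr, Kif4, Mki67, Nuf2, Nusap1, Prc1, Pttg1, Racgap1, Spc25 and Ube2c.

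**Figure D1:**
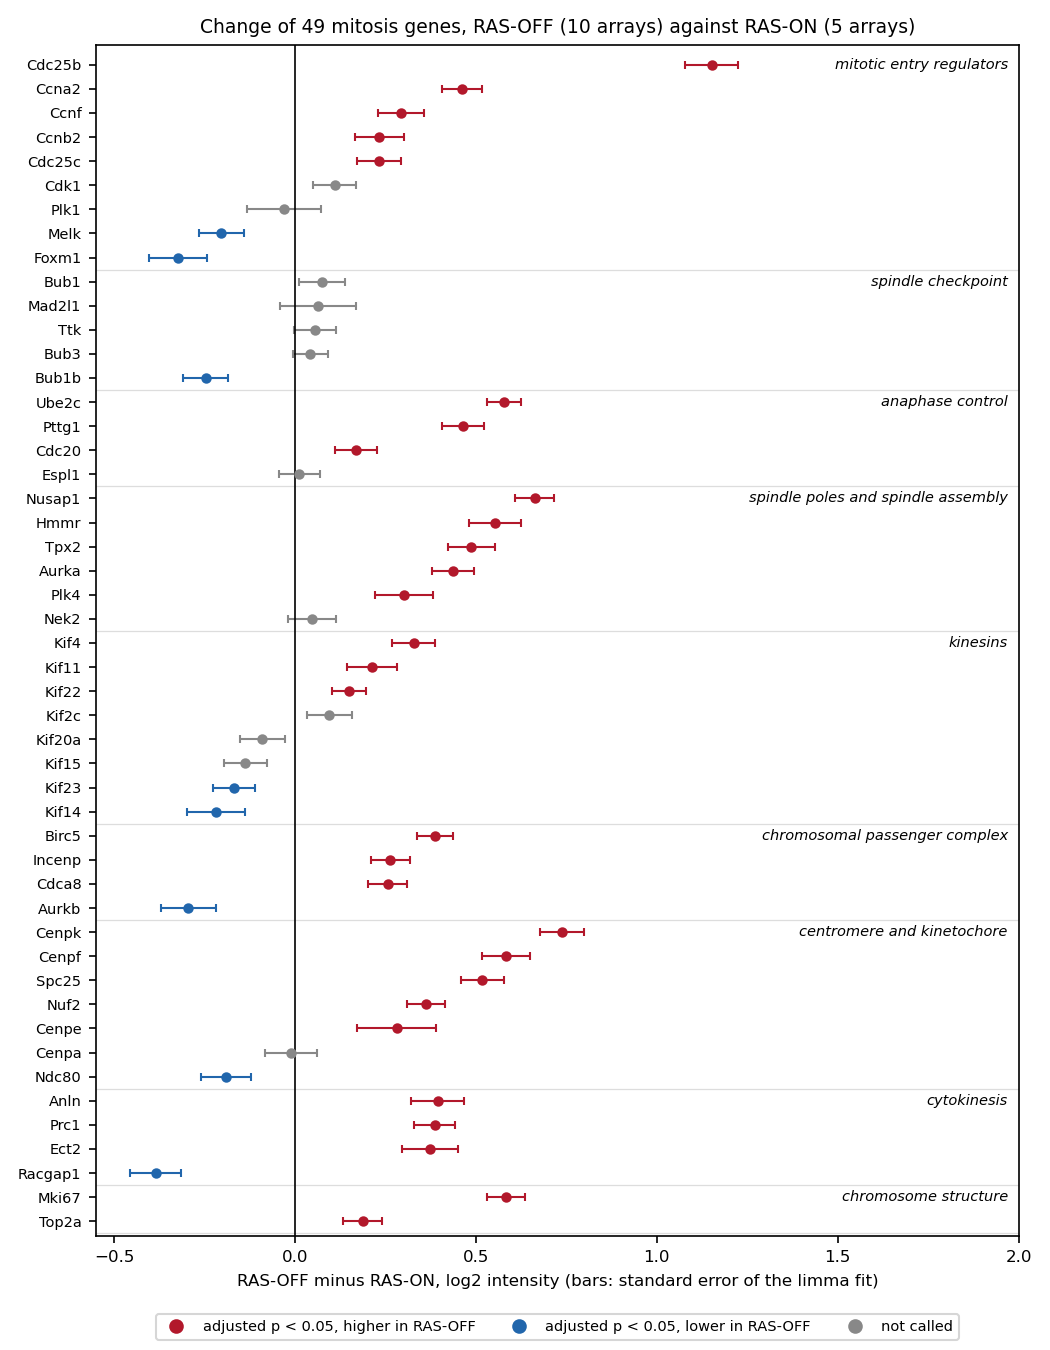
Change of each of the 49 mitosis genes, RAS-OFF minus RAS-ON in log2 intensity (horizontal axis), with genes in rows grouped by role; points are limma estimates and bars their standard errors. Red marks the 29 genes called higher in RAS-OFF, blue the 8 called lower and grey the 12 not called, and Cdc25b stands farthest right at 1.15.

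Among the regulators of mitotic entry, 5 of 9 measured genes rose, 2 fell and 2 were not called. Cdc25b, the phosphatase that removes inhibitory phosphates from Cdk1 at the onset of mitosis, had the largest change of the whole set. Its levels in RAS-OFF were 10.96 at the lowest, 11.38 at the median and 11.66 at the highest, against 10.39, 10.19, 10.23, 9.97 and 10.11 in RAS-ON. No RAS-OFF array came near the RAS-ON range, and the change was 1.15 ± 0.07 (SE, limma adjusted p = 8.15e-09), a 2.22-fold difference. Ccna2, the cyclin of S phase and early mitosis, was higher by 0.46, Ccnf, a substrate receptor of an SCF ubiquitin ligase, by 0.29, and Ccnb2, a B-type partner of Cdk1, by 0.23. Cdc25c, a second Cdk1-activating phosphatase, had 8.55, 9.02 and 9.33 as lowest, median and highest level in RAS-OFF, against 8.73, 8.53, 8.58, 8.84 and 8.82 in RAS-ON. Its change was 0.23 ± 0.06 (SE, limma adjusted p = 0.00619), and 6 RAS-OFF arrays, those of 72 h and later, lay above all RAS-ON arrays. The second, dimmer probe set of Cdc25c gave -0.07 and was not called, and with RAS-ON replicates 4 and 5 alone the change was 0.10 (adjusted p = 0.276). Cdk1, the central mitotic kinase, differed by 0.11 and Plk1, the polo kinase that acts from entry to cytokinesis, by -0.03, and neither was called with all arrays. The RAS-ON levels of Plk1 were 10.76, 10.90, 10.72, 10.15 and 10.46, with replicates 4 and 5 below the rest. Plk1 was called lower against RAS-ON replicates 1 to 3 alone, by -0.22 (adjusted p = 0.0216), and higher against replicates 4 and 5 alone, by 0.26 (adjusted p = 0.0429). With the replicate number as a block it was called lower by -0.26 (adjusted p = 0.0333). RAS-ON replicates 3, 4 and 5 have no RAS-OFF array of their number, so the block compares RAS-OFF with RAS-ON replicates 1 and 2 only. Cdk1 was called higher without RAS-ON replicate 5, by 0.15 (adjusted p = 0.0462), and against RAS-ON replicates 1 to 3 alone, by 0.17 (adjusted p = 0.0463). Ccnb2 lost its call against RAS-ON replicates 4 and 5 alone, at 0.16 (adjusted p = 0.175), and Ccnf with the block, at 0.20 (adjusted p = 0.0824).

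Foxm1, the transcription factor that activates many genes of this set, went the other way. It had 8.96, 9.11 and 9.53 in RAS-OFF as lowest, median and highest, against 9.45, 9.39, 9.53, 9.49 and 9.54 in RAS-ON. On 9 of 10 RAS-OFF arrays it was below all RAS-ON arrays, the exception being 84 h replicate 2, and the change was -0.32 ± 0.08 (SE, limma adjusted p = 0.00363). Each of its 4 probe sets was called lower when tested alone, with changes of -0.32, -0.32, -0.39 and -0.24. With the replicate number as a block the adjusted p of Foxm1 was 0.104. Melk, a kinase linked to proliferating progenitors, had 9.40, 9.93 and 10.06 in RAS-OFF, against 10.03, 9.96, 9.88, 9.9997 and 10.19 in RAS-ON, a change of -0.20 ± 0.06 (SE, limma adjusted p = 0.0155). The groups overlapped, with 4 RAS-OFF arrays below all RAS-ON arrays, and without RAS-ON replicate 5 the adjusted p for Melk was 0.0526. By time, Melk changed by -0.38 at 48 h and -0.58 at 60 h, but by -0.02, -0.01 and -0.03 at 72, 84 and 96 h.

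Of the 5 genes of the spindle checkpoint, 0 were called higher, 1 fell and 4 were not called, with a median change of 0.06. No gene of this role was higher at an unadjusted limma p under 0.05 either. Bub1b, which encodes the checkpoint protein BubR1, had 10.14, 10.50 and 10.64 in RAS-OFF, against 10.75, 10.80, 10.79, 10.50 and 10.54 in RAS-ON. It differed by -0.25 ± 0.06 (SE, limma adjusted p = 0.00385), its groups overlapped, and its 3 probe sets were all called lower. Within RAS-ON, replicates 1 to 3 were high for this gene and replicates 4 and 5 low, and against the last pair alone the change was -0.09 (adjusted p = 0.314). The kinase Bub1 differed by 0.08, Mad2l1, which inhibits Cdc20 until chromosomes are attached, by 0.06, the kinase Ttk by 0.06 and the Bub1 partner Bub3 by 0.04, and none of these was called with all arrays. Mad2l1 had 11.44, 11.32, 11.29, 11.86 and 11.95 in RAS-ON, with replicates 4 and 5 above the rest. It was called higher against RAS-ON replicates 1 to 3 alone, by 0.29 (adjusted p = 0.00392), and lower against replicates 4 and 5 alone, by -0.27 (adjusted p = 0.0165), so its direction depended on the RAS-ON arrays used. With the replicate number as a block, which keeps only RAS-ON replicates 1 and 2 as controls, it was called higher by 0.25 (adjusted p = 0.027). Bub3 was called higher with the mean of its probe sets, by 0.21 (adjusted p = 0.0279).

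Of the 4 genes that act at anaphase, 3 rose. Ube2c, the ubiquitin-conjugating enzyme of the anaphase promoting complex, had 13.28, 13.43 and 13.57 in RAS-OFF, against 12.82, 12.76, 12.93, 12.82 and 12.87 in RAS-ON. All RAS-OFF arrays were above all RAS-ON arrays, with a change of 0.58 ± 0.05 (SE, limma adjusted p = 1.25e-07). Pttg1, the securin that holds separase inactive, was higher by 0.46, and each of its 3 probe sets was called higher. Espl1, separase itself, differed by 0.01 and was not called. Cdc20, which activates the complex, was higher by 0.17 (adjusted p = 0.027 in limma), but its probe sets disagreed, with 0.08 not called and -0.33 called lower for the dimmer ones. The Cdc20 call was also lost without RAS-ON replicate 3 or 4 or without replicate 2 of 48, 60 or 84 h, at adjusted p of 0.0501 to 0.0869.

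The genes of spindle poles and spindle assembly had the highest median change of any role, 0.46, with 5 of 6 called higher. Nusap1, which bundles spindle microtubules, had 11.94, 12.33 and 12.57 in RAS-OFF, against 11.74, 11.52, 11.47, 11.58 and 11.56 in RAS-ON. The ranges did not overlap, and the change was 0.66 ± 0.06 (SE, limma adjusted p = 1.48e-07). Hmmr, a microtubule-binding protein of the spindle poles, had 10.88, 11.46 and 11.73 in RAS-OFF, against 10.80, 10.77, 11.06, 10.70 and 10.84 in RAS-ON, a change of 0.55 ± 0.07 (SE, limma adjusted p = 1.46e-05). Only 48 h replicate 1 of RAS-OFF lay within the RAS-ON range. Aurka, the kinase of the spindle poles, rose by 0.44, Tpx2, which activates it, by 0.49, and Plk4, the master kinase of centriole duplication, by 0.30. For Tpx2 and Plk4 dimmer probe sets were called lower, at -0.35 and -0.33 for Tpx2 and at -0.62 for Plk4. Against RAS-ON replicates 4 and 5 alone Plk4 differed by 0.11 (adjusted p = 0.373). With the mean of the probe sets neither was called, at -0.05 for Tpx2 (adjusted p = 0.499) and -0.11 for Plk4 (adjusted p = 0.181). Nek2, a kinase of centrosome separation, differed by 0.05 and was not called, but against RAS-ON replicates 1 to 3 alone it was called higher by 0.17 (adjusted p = 0.0215).

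The 8 kinesins, the motor proteins of the spindle, split into 3 higher, 2 lower and 3 not called, with a median change of 0.00. Kif4, a motor carried on chromosome arms, had 9.94, 10.42 and 10.60 in RAS-OFF, against 10.07, 9.92, 9.76, 10.02 and 10.12 in RAS-ON, and differed by 0.33 ± 0.06 (SE, limma adjusted p = 0.000334). The 7 RAS-OFF arrays above all RAS-ON arrays were replicate 2 of 48 h and the 6 of 72 h and later. Kif11, which pushes the poles apart, was higher by 0.21 and Kif22, another chromosome-bound motor, by 0.15. Kif14, a motor of cytokinesis, was the dimmest gene of the set, with 3.77, 4.02 and 4.11 in RAS-OFF, against 4.02, 4.32, 3.93, 4.40 and 4.41 in RAS-ON, and a change of -0.22 ± 0.08 (SE, limma adjusted p = 0.0354). Kif23, the motor of the centralspindlin complex at the midzone, was lower by 0.17, although a dim probe set of it was called higher at 0.47. Its change was -0.33 at 48 h and -0.50 at 60 h, but -0.01, 0.05 and -0.05 at 72, 84 and 96 h. Kif2c, which shortens microtubules, differed by 0.09, Kif20a, a midzone motor, by -0.09, and Kif15, a motor that acts beside Kif11, by -0.14. None of these was called on its brightest probe set with all arrays as deposited. A dimmer probe set of Kif2c was called lower at -0.23. With the mean of its probe sets Kif2c was called lower, by -0.12 (limma adjusted p = 0.0455). The calls of Kif11, Kif14, Kif22 and Kif23 were each lost when some single array was left out. Kif14 lost its call without RAS-ON replicate 2, 4 or 5, 48 h replicate 1, 60 h replicate 1, 72 h replicate 2, either 84 h array or 96 h replicate 2, at adjusted p of 0.0514 to 0.108. Kif11 lost it without RAS-ON replicate 1 or 3, at 0.0589 and 0.0602, and against RAS-ON replicates 4 and 5 alone it differed by 0.04 (adjusted p = 0.698). Kif22 lost it without RAS-ON replicate 4, at 0.0609, and with the replicate number as a block, at a change of 0.08 (adjusted p = 0.361). Against RAS-ON replicates 1 to 3 alone Kif22 differed by 0.09 (adjusted p = 0.14). Kif23 lost it without RAS-ON replicate 5 or 84 h replicate 1, at 0.0867 and 0.0544. Kif15 was called lower with arrays centred on their medians, by -0.16 (adjusted p = 0.0352), and without 48 h replicate 2 or 72 h replicate 2, at adjusted p of 0.0395 and 0.0224.

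The chromosomal passenger complex corrects wrong attachments of chromosomes and later acts in cytokinesis. Its kinase and its other subunits differed in sign. Birc5, survivin, had 12.12, 12.49 and 12.65 in RAS-OFF, against 12.05, 11.97, 11.98, 12.13 and 12.07 in RAS-ON, with a change of 0.39 ± 0.05 (SE, limma adjusted p = 1.11e-05). Only 48 h replicate 1 of RAS-OFF fell within the RAS-ON range. Incenp, the scaffold, and Cdca8, borealin, were each higher by 0.26. Incenp had 5 probe sets, of which 2 were called higher and the dimmest lower, and with their mean it differed by 0.08 (adjusted p = 0.233). Cdca8 differed by 0.15 against RAS-ON replicates 4 and 5 alone (adjusted p = 0.0889). Aurkb, the kinase, had 9.84, 10.28 and 10.52 in RAS-OFF, against 10.60, 10.53, 10.45, 10.38 and 10.61 in RAS-ON, and differed by -0.29 ± 0.08 (SE, limma adjusted p = 0.00469). On 7 of 10 RAS-OFF arrays it was below all RAS-ON arrays. Its other probe set gave -0.06 and was not called, and against RAS-ON replicates 4 and 5 alone the adjusted p was 0.0661.

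Of the 7 centromere and kinetochore genes, 5 rose, 1 fell and 1 was not called. Cenpk, a subunit of the network that sits on centromeric chromatin through the whole cell cycle, had 10.54, 11.02 and 11.39 in RAS-OFF, against 10.17, 10.26, 10.14, 10.37 and 10.33 in RAS-ON. All its RAS-OFF values lay above RAS-ON, the change was 0.74 ± 0.06 (SE, limma adjusted p = 1.15e-07), and its 3 probe sets were all called higher. Cenpf, a large protein of the outer kinetochore that is made late in the cycle, had 10.81, 11.48 and 11.65 in RAS-OFF, against 10.58, 10.66, 10.78, 10.72 and 11.00 in RAS-ON. It differed by 0.58 ± 0.07 (SE, limma adjusted p = 3.73e-06), and 7 RAS-OFF arrays exceeded every RAS-ON array. The Ndc80 complex, which grips microtubule ends, was uneven across its 3 subunits of the set. Spc25 had 10.90, 11.25 and 11.31 in RAS-OFF, against 10.73, 10.77, 10.43, 10.52 and 10.69 in RAS-ON, without overlap, and differed by 0.52 ± 0.06 (SE, limma adjusted p = 4.36e-06). Nuf2 was higher by 0.36 and Ndc80 lower by 0.19. Cenpe, the kinesin of the kinetochore, was called higher by 0.28. Cenpa, the histone variant that marks centromeres, differed by -0.01 on its brightest probe set and was not called. A dimmer probe set of Cenpa was called higher at 0.96, as was the mean of its probe sets at 0.30 (limma adjusted p = 0.0112). Without single arrays the Ndc80 and Cenpe calls were lost. For Ndc80 these were RAS-ON replicate 2 or 5 and replicate 1 of 48, 60, 72, 84 or 96 h, at adjusted p of 0.0553 to 0.111. For Cenpe they were RAS-ON replicate 1, 2, 4 or 5, either array of 48 and 72 h, 60 h replicate 1 and replicate 2 of 84 and 96 h, at 0.0525 to 0.114.

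In cytokinesis, 3 of 4 genes rose. Anln, anillin, which links the contractile ring to the membrane, had 10.60, 11.10 and 11.31 in RAS-OFF, against 10.66, 10.76, 10.80, 10.34 and 10.63 in RAS-ON, and differed by 0.39 ± 0.07 (SE, limma adjusted p = 0.000445). All RAS-OFF arrays but 48 h replicate 1 and both of 60 h were above RAS-ON. Prc1, which bundles midzone microtubules, was higher by 0.39 and Ect2, the exchange factor that activates RhoA at the division plane, by 0.37. Racgap1, the partner of Kif23 in centralspindlin and the anchor for Ect2, had the largest fall of the set, with 9.91, 10.36 and 10.56 in RAS-OFF, against 10.64, 10.58, 10.39, 10.71 and 10.86 in RAS-ON. It changed by -0.39 ± 0.07 (SE, limma adjusted p = 0.000371). The 4 arrays of 48 and 60 h and 84 h replicate 1 were below all RAS-ON arrays. A second probe set gave -0.35 and was called lower, and the third, near the floor of the array, gave 0.01.

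Both genes of chromosome structure were called higher, Mki67 under each of the 24 other settings of the fit and Top2a under 22 of them, single probe sets aside. Mki67, which coats mitotic chromosomes and is the usual marker of dividing cells, was the brightest gene of the set, with 13.34, 13.73 and 13.88 in RAS-OFF, against 13.04, 13.10, 13.25, 12.97 and 13.05 in RAS-ON. The ranges were separate, and the change was 0.58 ± 0.05 (SE, limma adjusted p = 4.27e-07). Top2a, the topoisomerase that untangles sister chromatids, was higher by 0.19. With the replicate number as a block it differed by 0.10 (adjusted p = 0.256), and against RAS-ON replicates 1 to 3 alone by 0.11 (adjusted p = 0.11).

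**Figure D2:**
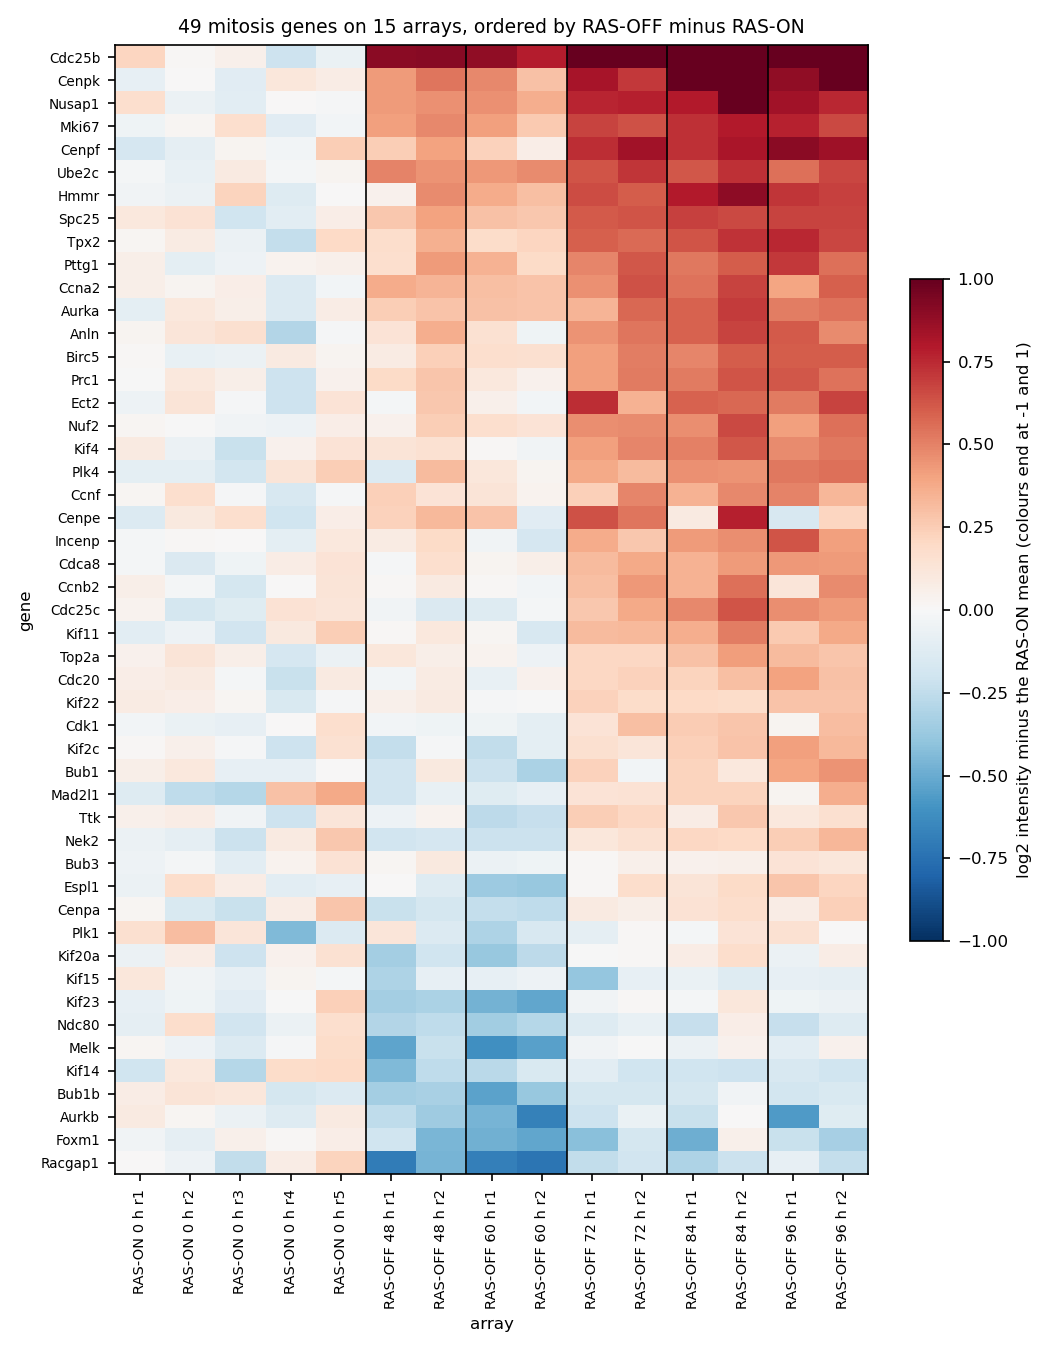
Log2 intensity minus the RAS-ON mean for the 49 mitosis genes (rows, ordered by their change) on the 15 arrays (columns, RAS-ON 0 h at left, then RAS-OFF 48 to 96 h), red above and blue below the RAS-ON mean. The upper rows are red from 48 h on, the lower rows are blue at 48 and 60 h, and nearly the whole set shifts towards red from 72 h.

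The probe sets of a gene did not always move together. Among the 49 genes, 32 had several probe sets and 17 had 1, making 111 in all, of which 50 were called higher and 22 lower when tested alone. Over all 34945 probe sets with 1 symbol the shares were 19.3% and 26%. In 6 genes, Cdc20, Incenp, Kif22, Kif23, Plk4 and Tpx2, probe sets were called in both directions. With the mean of all probe sets of a gene in place of the brightest, 24 genes were higher (19% of all genes) and 8 lower (29.4%).

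Each RAS-OFF time was then set against the same 5 RAS-ON arrays, so that the 5 comparisons share their controls. At 48 h 10 mitosis genes were higher (13.7% of all genes) and 6 lower (13.7%), with a median change of 0.07. At 60 h 10 were higher (11.5%) and 9 lower (14.2%), with a median change of -0.01. The calls at 60 h were near an even split, while at 48 h more genes were higher than lower. At 72 h 27 were higher (13.4%) and 0 lower (18.3%), with a median of 0.32. At 84 h 29 were higher (15%) and 0 lower (21.8%), with a median of 0.41, and at 96 h 32 were higher (16.7%) and 1 lower (20.9%), with a median of 0.37. At an unadjusted limma p under 0.05, 2 genes were lower at 72 h and 1 at 84 h. The early counts depended on single arrays. Leaving one out left 1 array at that time, and no share over all genes is given beside the counts that follow. At 48 h 1 gene was lower without replicate 1, and 6 were higher and 2 lower without replicate 2. At 60 h 2 were higher and 4 lower without replicate 1, and 5 were higher and 5 lower without replicate 2.

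The same step is seen array by array in the median difference of the set from the RAS-ON mean. On the RAS-ON arrays this median was 0.01, 0.01, -0.05, -0.05 and 0.09. It was 0.01 and 0.10 at 48 h, 0.01 and -0.04 at 60 h, 0.27 and 0.32 at 72 h, 0.35 and 0.45 at 84 h, and 0.40 and 0.38 at 96 h. Both arrays of 60 h lay within the RAS-ON range, and all 6 of 72 h and later lay above it. The group means placed the lowest RAS-OFF level at 60 h for 40 of the 49 genes, compared with 18.5% of all genes, and at 48 h for 7 more. The highest level came at 84 h for 24 genes and at 96 h for 21, compared with 15.3% and 27.5% of all genes.

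**Figure D3:**
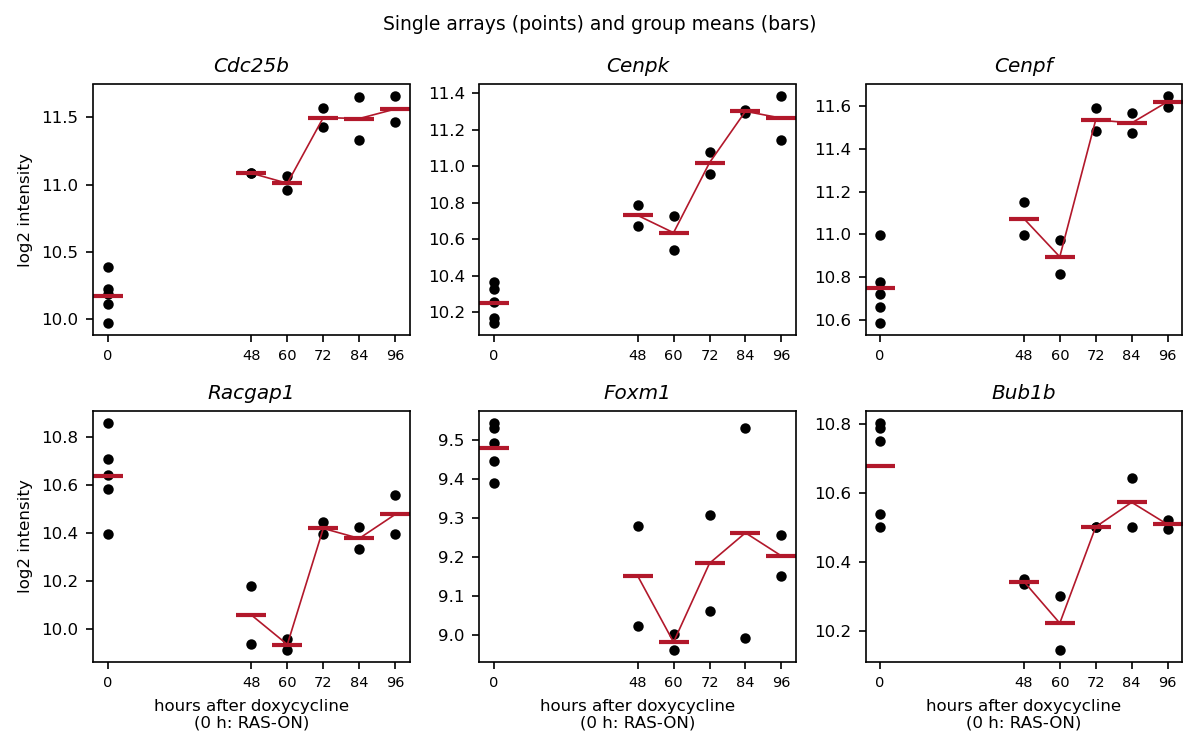
Log2 intensity of the 3 mitosis genes Cdc25b, Cenpk and Cenpf and of the 3 genes Racgap1, Foxm1 and Bub1b (one panel each) against hours after doxycycline, with RAS-ON at 0 h; points are single arrays and bars group means, joined over the RAS-OFF times. All 6 are lowest within RAS-OFF at 60 h; at later times the upper 3 lie farther above RAS-ON, and the means of the lower 3 stay below it.

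Because the RAS-OFF times share no control among themselves, a straight line through the 5 RAS-OFF means, with its slope per 12 h, was tested without reference to the RAS-ON level. Of the 49 genes 34 had a called upward slope and 0 a downward one (limma adjusted p under 0.05), compared with 5% and 8.75% of all genes, and 0 of the set were downward at an unadjusted p under 0.05. The median slope was 0.11 log2 units per 12 h for the set and 0.00 for all genes, and 48 of 49 slopes were above 0, Cenpe being the exception at -0.02 ± 0.04 (SE). The steepest slopes were those of Cenpk at 0.17 ± 0.02 (SE, limma adjusted p = 0.000453), Cenpf at 0.17 ± 0.03 (adjusted p = 0.000851) and Cdc25c at 0.17 ± 0.03 (adjusted p = 0.000637). Cenpk had 10.68 and 10.79 at 48 h, 10.73 and 10.54 at 60 h, 11.08 and 10.96 at 72 h, 11.31 and 11.29 at 84 h, and 11.14 and 11.39 at 96 h. Cenpf had 11.00 and 11.15 at 48 h, 10.98 and 10.81 at 60 h, 11.48 and 11.59 at 72 h, 11.48 and 11.57 at 84 h, and 11.65 and 11.60 at 96 h. Cdc25c had 8.66 and 8.55 at 48 h, 8.57 and 8.68 at 60 h, 8.97 and 9.08 at 72 h, 9.18 and 9.33 at 84 h, and 9.16 and 9.13 at 96 h. In all 3 genes each array of 72 h or later was above each of 48 and 60 h.

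The slope calls rested on few arrays. Without 48 h replicate 1, 16 genes of the set kept a called upward slope, while 1.61% of all genes had one. Without the 3 arrays that stood apart, 2 genes did, Cenpk and Cdc25c, beside 0.473% of all genes. With both 60 h arrays left out the count was 17, beside 2.71% of all genes. In all settings tried, 46 to 49 of the 49 slopes were above 0, and the median slope ran from 0.08 to 0.13. Of the genes called higher in RAS-OFF, 25 of 29 also had a called upward slope, as did 3 of the 8 called lower and 6 of the 12 not called.

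**Figure D4:**
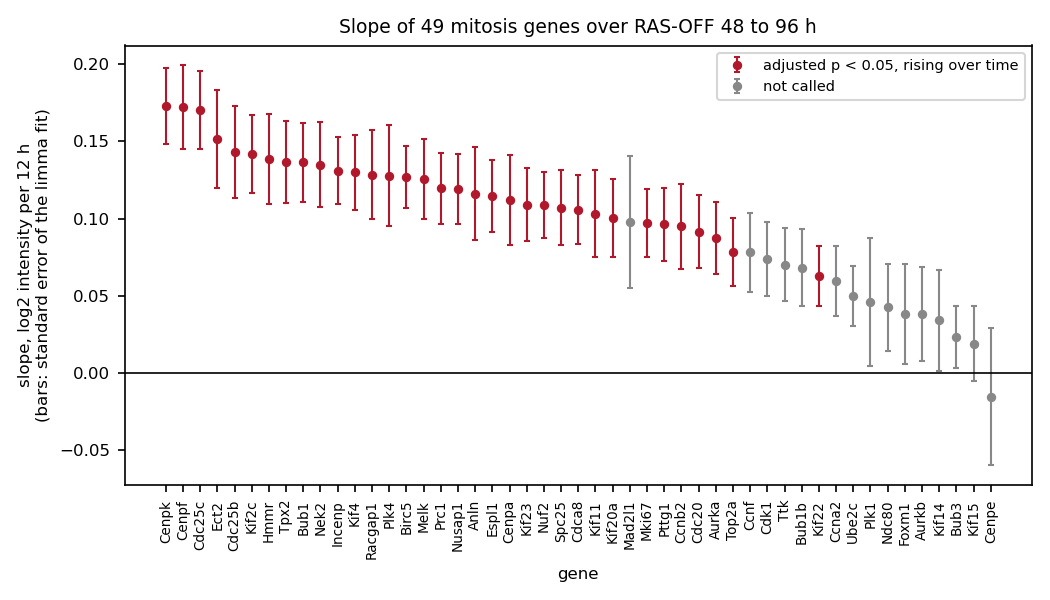
Slope over RAS-OFF 48 to 96 h in log2 intensity per 12 h (vertical axis) for each of the 49 mitosis genes, ordered from the steepest; points are limma estimates and bars standard errors, red for the 34 called upward slopes. The points run from 0.17 for Cenpk to -0.02 for Cenpe, and no downward slope is called.

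Markers of other cells and other cell cycle genes moved on the same arrays. Of 26 measured S phase genes, 19 were higher in RAS-OFF and 1 lower, with a median change of 0.28. Their array medians were 0.12 and 0.15 at 48 h, 0.03 and 0.03 at 60 h, 0.28 and 0.31 at 72 h, 0.40 and 0.45 at 84 h, and 0.42 and 0.51 at 96 h, so that they dipped at 60 h and were high from 72 h as the mitosis genes did. All 13 measured erythroid markers were higher in RAS-OFF, with a median change of 1.67; their median ran from 1.43 to 1.86 over the RAS-OFF arrays and from -0.14 to 0.28 over the RAS-ON arrays. It was at 1.45 and 1.47 at 48 h and at 1.49 and 1.43 at 60 h, times at which the mitosis median lay near that of RAS-ON. From 72 h the erythroid median was higher too. It was 1.68 and 1.86 at 72 h, 1.76 and 1.84 at 84 h, and 1.82 and 1.75 at 96 h. Of the 6 megakaryocyte markers, 6 were higher, and of 8 red pulp macrophage markers 7 were higher and 1 lower. Of 10 leukemia and myeloid markers 1 was higher and 5 lower, with array medians of -0.60 to -0.09 in RAS-OFF and of -0.13 to 0.15 in RAS-ON. The part of these cells in the mitosis result was not tested.

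**Figure D5:**
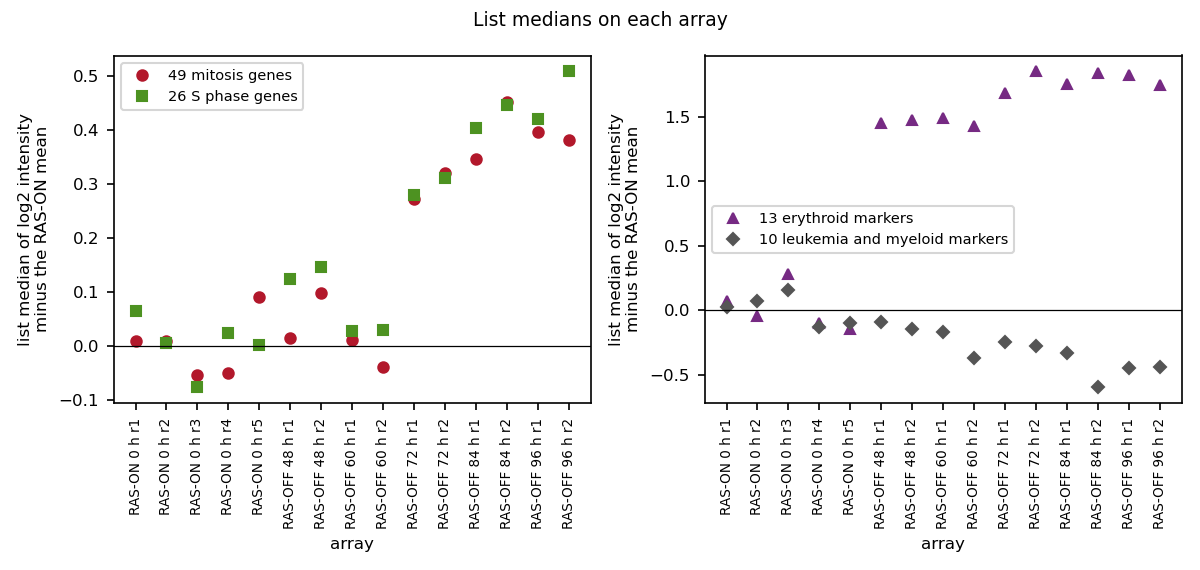
Median over a gene list of log2 intensity minus the RAS-ON mean (vertical axis) on each of the 15 arrays (RAS-ON 0 h, then RAS-OFF by time): mitosis and S phase genes on the left, erythroid and leukemia or myeloid markers on the right, on a wider scale. The mitosis median is -0.04 to 0.10 at 48 and 60 h and 0.27 to 0.45 later. The erythroid median is 1.43 to 1.49 at 48 and 60 h and 1.68 to 1.86 later.

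A further 107 mitosis genes outside the set, in 7 lists by complex, were counted for comparison, and 105 were measured. Of these 49 were higher in RAS-OFF (46.67%), 17 lower (16.19%) and 39 not called, with a median change of 0.06 and a median slope of 0.07. Condensin, which compacts chromosomes, had 6 of 8 subunits higher and 0 lower, led by Ncapg2 at 0.74 and Ncapd3 at 0.54. Cohesin subunits and regulators had 7 of 11 higher and 0 lower, led by the releasing factor Wapl at 0.99 and the acetyltransferase Esco2 at 0.98. Among other inner centromere genes 9 of 16 were higher and 2 lower, with Oip5, which loads Cenpa, at 0.77 and Cenpl at 0.56. Among other outer kinetochore genes 8 of 17 were higher and 1 lower, with Kntc1 at 0.74 and the cohesin protector Sgo1 at 0.58. The list of the anaphase promoting complex and its partners had 5 of 15 genes higher and 4 lower. Its largest changes were -0.66 for Anapc11 and 0.65 for the inhibitor Fbxo5. Of the core subunits, Cdc27 and Anapc5 were higher, and Anapc4, Anapc7, Anapc11 and Anapc13 were lower. Fbxo5, Fzr1 and Ube2s, the other genes called higher, are not core subunits. Other mitotic entry genes gave 4 of 14 higher and 4 lower, with Lin54, a subunit of the complex that binds CHR elements, at 0.51 and Gas2l3 at -0.50.

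The last list, other spindle and cytokinesis genes, had 10 of 24 higher and 6 lower, and held the largest change of all these genes. Cep55, which recruits the membrane-cutting machinery to the midbody, had 8.20, 8.78 and 9.23 in RAS-OFF as lowest, median and highest level, against 10.77, 10.86, 10.63, 10.60 and 10.95 in RAS-ON. The ranges were far apart, and the change was -1.99 ± 0.09 (SE, limma adjusted p = 2.45e-10), with -0.95 on its second probe set. Its level was 9.02 and 9.23 at 48 h, 8.60 and 9.07 at 60 h, 9.08 and 8.97 at 72 h, 8.51 and 8.20 at 84 h, and 8.59 and 8.45 at 96 h. Kif18a, a kinesin that damps chromosome movement, was higher by 0.77.

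Promoter windows of the mitosis genes, from 250 bases before to 50 after the annotated start, were read from RefSeq on GRCm38.p6, which held 43 of the 50 genes. The windows were searched on both strands for TTTGAA (the CHR, or cell cycle genes homology region), CCAAT, and TTGGCGC or TTCCCGC (E2F); an E2F match on the reverse strand, GCGCCAA, shares bases with a CCAAT match where a T follows. CHR letters were in 30 of the 43 windows (69.8%), compared with 1930 of 14454 genes (13.4%) in the same table. CCAAT was in 32 (74.4%, compared with 38.2%), both together in 26 (60.5%, compared with 5.37%), and E2F in 6 (14%, compared with 10.3%). By call, CHR letters were in 17 of 25 genes called higher (68%), 5 of 6 called lower (83.3%) and 8 of 11 not called (72.7%). In 27 of the 30 windows with a CHR, the match nearest the downstream end lay within 60 bases before or 50 after the start. Taking the most downstream match favours such places, and positions in other genes were not counted for comparison. A match is a description of the letters and not a bound site.

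Windows of the largest changes are shown to set CHR and CCAAT beside the direction of change. They are written 5 prime to 3 prime on the strand of the gene, with the matches in capitals. The first pair are Cdc25b (chr2:131186698-131186997, plus strand) and Cenpk (chr13:104228361-104228660, plus strand, the first of its 3 listed windows), the largest rises. Neither holds TTTGAA, the only spelling of the CHR searched, and each has 1 CCAAT, read on the reverse strand in Cdc25b.
Cdc25b: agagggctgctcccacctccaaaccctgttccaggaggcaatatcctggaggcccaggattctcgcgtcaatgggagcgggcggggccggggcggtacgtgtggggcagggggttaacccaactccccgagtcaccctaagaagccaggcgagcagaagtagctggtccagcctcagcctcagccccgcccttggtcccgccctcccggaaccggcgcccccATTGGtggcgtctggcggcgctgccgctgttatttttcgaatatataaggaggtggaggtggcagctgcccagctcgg
Cenpk: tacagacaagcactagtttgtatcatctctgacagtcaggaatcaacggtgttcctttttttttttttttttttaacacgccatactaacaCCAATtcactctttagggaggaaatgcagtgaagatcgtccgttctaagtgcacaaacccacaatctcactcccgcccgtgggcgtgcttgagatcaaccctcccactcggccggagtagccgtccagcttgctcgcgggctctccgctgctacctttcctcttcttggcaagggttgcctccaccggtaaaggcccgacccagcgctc
The next pair are Mki67 (chr7:135716330-135716629, minus strand) and Cenpf (chr1:189688037-189688336, minus strand), the largest rises whose window holds TTTGAA, chosen after their values were seen. Mki67 has 2 CHR, 3 CCAAT and 1 E2F match, and Cenpf has 1 CHR and 2 CCAAT matches, its CHR starting at base 3 counted from the start.
Mki67: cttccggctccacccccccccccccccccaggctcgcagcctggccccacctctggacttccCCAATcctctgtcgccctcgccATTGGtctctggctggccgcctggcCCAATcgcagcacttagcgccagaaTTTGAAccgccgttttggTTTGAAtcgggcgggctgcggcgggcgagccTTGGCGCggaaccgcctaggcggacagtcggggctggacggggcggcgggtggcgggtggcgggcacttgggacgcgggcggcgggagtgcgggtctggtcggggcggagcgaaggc
Cenpf: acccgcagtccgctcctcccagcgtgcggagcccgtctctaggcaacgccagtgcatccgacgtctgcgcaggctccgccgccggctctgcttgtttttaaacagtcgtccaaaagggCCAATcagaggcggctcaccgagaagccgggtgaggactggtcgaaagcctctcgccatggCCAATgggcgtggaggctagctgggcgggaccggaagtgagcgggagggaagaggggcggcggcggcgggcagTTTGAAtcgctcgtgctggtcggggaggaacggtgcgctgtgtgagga
The last pair are Racgap1 (chr15:99651607-99651906, minus strand) and Bub1b (chr2:118597961-118598260, plus strand), the largest falls with a listed window. Each has 1 CHR downstream of the start and 1 CCAAT on the reverse strand upstream of it.
Racgap1: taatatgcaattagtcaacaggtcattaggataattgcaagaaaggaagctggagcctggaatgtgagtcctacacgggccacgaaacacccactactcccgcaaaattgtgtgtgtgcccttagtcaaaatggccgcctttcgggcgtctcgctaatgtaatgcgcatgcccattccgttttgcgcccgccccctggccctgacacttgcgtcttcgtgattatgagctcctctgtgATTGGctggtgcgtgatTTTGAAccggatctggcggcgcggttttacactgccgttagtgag
Bub1b: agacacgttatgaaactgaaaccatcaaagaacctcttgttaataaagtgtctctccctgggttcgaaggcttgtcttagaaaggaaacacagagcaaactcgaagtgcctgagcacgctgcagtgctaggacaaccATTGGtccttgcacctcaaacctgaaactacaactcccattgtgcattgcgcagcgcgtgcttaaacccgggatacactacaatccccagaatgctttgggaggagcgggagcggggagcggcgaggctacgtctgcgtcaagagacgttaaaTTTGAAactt
Cenpf, which rose, and Racgap1, which fell, both carry CHR letters just after the start and CCAAT before it.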

How the data were processed

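Biotin-labelled RNA was measured on Affymetrix mouse whole-genome arrays. Per the submitters' processing notes the authors used RMA, and the deposited intensities are on a linear scale, so log2 was taken here. RMA gives all arrays similar distributions, so a change of most genes in 1 direction would not be visible. Of the probe sets, 34945 had 1 gene symbol in the platform annotation, and the brightest per gene over all arrays gave 18193 genes.

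The tests used limma 3.58.1 (R 4.3.3): 1 mean per group, default eBayes, two-sided, Benjamini-Hochberg over all genes, called at adjusted p under 0.05. Errors are standard errors of the fit. The code was tested on simulated data. Single-array values are given for the 8 largest called rises, the 6 largest called falls, the 3 steepest slopes and the gene of each role with the largest change; comparison lists name their 2 largest called changes. The members and lists were chosen with earlier results of these data known. Arrays of 1 group correlated at 0.9901 to 0.9976, with no identical pair. The alternatives were other scaling, probe set, filter, eBayes, weighting, block and array choices, and each RAS-OFF time left out, the last chosen after the data were seen.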

Additional observations from a re-analysis of the deposited data

Results flagged for a closer look

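The level of the mitosis genes differed between the RAS-OFF times themselves: 34 of the 49 genes had a called upward slope over 48 to 96 h (limma adjusted p under 0.05), compared with 5% of all genes. The count was 16 without 48 h replicate 1 and 2 without the 3 arrays that stood apart. No single array stood out among the 5 RAS-ON arrays for any of the 49 genes by the gap test used. That test looks at 1 array at a time. It cannot see RAS-ON replicates 4 and 5 lying apart together, as they did for Plk1 and Mad2l1.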

How the results depend on the processing

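Of the changes and slopes of single genes under other settings, 2134 of 2410 kept their direction and their side of the threshold, 184 lost their call, 31 gained one and 61 changed sign, 18 of these among called ones. The cause was not tested for any of them. With fewer arrays or a larger minimum change, fewer calls follow from the construction.

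With arrays centred on their medians, 1 gene was lower at 72 h (20.8% of all genes) and Espl1 changed by -0.011. With the mean of all probe sets of a gene, 6 genes were higher at 60 h (10.9% of all genes). In this setting 1 gene each was lower at 72 h (18.8%) and 84 h (22%). The changes became -0.028 for Cdc20, -0.106 for Plk4, -0.037 for Nek2 and -0.049 for Tpx2. They became -0.0030 for Kif22, 0.024 for Kif23, -0.12 for Kif2c and 0.30 for Cenpa. Kif2c was then called lower and Cenpa higher (limma adjusted p = 0.0455 and 0.0112), though neither was called on its brightest probe set. The slopes became -0.012 for Plk4, -0.0075 for Kif11 and 0.079 for Cenpe. With array weights, 1 gene each was lower at 72 h (23% of all genes) and 84 h (26.3%), Espl1 changed by -0.0041 and Cenpa by 0.0089.

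Whether the replicate numbers pair the arrays was not settled. Over 30 pairs of arrays with 1 number in different groups, deviations from the group means correlated at -0.237 to 0.217, and 5 exceeded 0.1. With 2 arrays in each RAS-OFF group the deviations of a group mirror each other. Many of these values therefore repeat, and they cannot exclude a pairing. The replicate block compares RAS-OFF with RAS-ON replicates 1 and 2 only. With it, 24 genes were higher and 5 lower (25.7% of all genes) in RAS-OFF, and 38 slopes were called upward. For the 24 and the 38 no share over all genes is given, so they are not set against the whole array. At 72 h 1 gene was lower (20.1%) and at 96 h 2 were (22%). Bub1 changed by -0.0067, Ttk by -0.0059, Espl1 by -0.047 and Cenpa by 0.055.

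With RAS-ON replicates 1 to 3 only, 5 genes were lower in RAS-OFF (26.8% of all genes). The count lower was 1 at 72 h (20.1%), 1 at 84 h (23.1%) and 2 at 96 h (21.9%). Espl1 changed by -0.051 and Cenpa by 0.11. With RAS-ON replicates 4 and 5 only, 2 genes each were lower at 72 h (19% of all genes), 84 h (22%) and 96 h (21.1%). Plk1 changed by 0.26, Bub3 by -0.046, Mad2l1 by -0.27 and Nek2 by -0.13. Leaving out the 3 arrays that stood apart (replicate 1 of 48, 84 and 96 h), 4 genes were lower in RAS-OFF, 1 at 48 h, 1 at 72 h and 0 at 96 h, and 2 slopes were called; Espl1 changed by -0.0015 and Cenpa by 0.013, and the slopes were -0.0075 for Kif15 and 0.048 for Cenpe. With a minimum change of 0.5 (0.1 per 12 h for the slope), 8 genes were higher (7.74% of all genes) and 0 lower (7.69%) in RAS-OFF, 1 higher (8.18%) and 1 lower (4.52%) at 48 h, 1 higher (6.43%) and 3 lower (5.86%) at 60 h, 13 higher (7.94%) at 72 h, 19 higher (8.34%) at 84 h, and 18 higher (8.54%) and 0 lower (10.5%) at 96 h. Leaving out a whole time, an alternative added after the data were seen, gave 5 genes lower in RAS-OFF without 48 h or 60 h, and 17 called slopes without 60 h. No share over all genes is given here beside these counts or those without the 3 arrays.

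With each array left out in turn, 26 to 29 genes were higher and 4 to 9 lower in RAS-OFF, and 16 to 36 upward and 0 downward slopes were called. The single times gave 6 to 11 higher and 1 to 7 lower at 48 h, 2 to 10 higher and 4 to 12 lower at 60 h, 18 to 28 higher and 0 to 2 lower at 72 h, 21 to 30 higher and 0 to 1 lower at 84 h, and 26 to 32 higher and 0 to 2 lower at 96 h. A time left with 1 array took its spread from the rest of the fit. No share over all genes is given beside these ranges, and that share can change with the arrays too. Changes that crossed 0 ran from -0.141 to 0.047 for Plk1, -0.015 to 0.056 for Espl1, -0.0086 to 0.158 for Mad2l1, -0.0056 to 0.115 for Nek2 and -0.066 to 0.058 for Cenpa, and slopes from -0.0032 to 0.041 for Kif15, -0.053 to 0.022 for Cenpe and -0.0061 to 0.083 for Aurkb.

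Single probe sets with the opposite sign gave changes of -0.067 for Cdc25c, -0.33 for Cdc20, -0.62 for Plk4, -0.23 for Nek2, -0.35 and -0.33 for Tpx2, -0.38 for Kif22, 0.47 for Kif23, -0.15, -0.23 and -0.18 for Kif2c, -0.12 and -0.27 for Incenp, 0.96 for Cenpa, 0.012 for Racgap1 and -0.092 for Top2a. Probe sets near the array floor, such as those of Kif14 and the third of Racgap1, limit what can be seen.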
